A study of Mus musculus with 4 samples.

Results

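The BMP and ALK1 signalling genes are 10 of the 32286 genes counted in these libraries, chosen by name for their roles in 1 pathway: the ligand *Bmp6*, the extracellular antagonist *Nog* and modulator *Bmper*, the receptors *Acvrl1*, *Eng* and *Bmpr2*, the inhibitory SMADs *Smad6* and *Smad7*, and the target genes *Id1* and *Id3*. They were measured by single-cell RNA-seq in microvascular fragments that PECAM1 antibody beads had pulled from the cerebra of 4 mice of 3 months, with 1 library per mouse. A pair of mice were wild type (*Angpt2*+/+, WT1 and WT2), and a pair carried a constitutive deletion of *Angpt2* exon 4 on both alleles (*Angpt2*-/-, KO1 and KO2), made with a floxed allele and Pgk-Cre, which deletes in every tissue, and kept on C57BL6/J. The mice numbered 1 were female and those numbered 2 male. The p-values between genotypes therefore measure the spread between 2 mice of a genotype, which also differ in sex, and no more. Those of comparisons with the mouse as a term measure how far differences between classes vary from mouse to mouse.

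BMP9 and BMP10 from the blood bind ALK1 (encoded by *Acvrl1*) on endothelial cells (ECs), together with the type II receptor BMPR2 and the co-receptor endoglin (*Eng*). The receptors phosphorylate SMAD1 and SMAD5, which switch on *Id1* and *Id3*, and SMAD6 and SMAD7 feed back to damp the signal. BMP6 acts mainly through other type I receptors, noggin (*Nog*) traps several BMPs outside the cell, and BMPER binds BMPs and modulates them. Loss of *ENG* or *ACVRL1* causes hereditary haemorrhagic telangiectasia, a disease of arteriovenous malformations, and loss of *BMPR2* causes pulmonary arterial hypertension.

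After cells with 500 genes or fewer, or 10% or more mitochondrial UMIs (unique molecular identifiers, 1 per captured transcript), were left out, there remained 17999 of 19809 barcodes, with 31753395 to 42903731 UMIs per library and a median of 4979 UMIs per cell. The PECAM1 beads select ECs, and 14163 cells fell in clusters that expressed the endothelial markers *Cldn5*, *Flt1*, *Tie1*, *Pecam1*, *Cdh5*, *Kdr* and *Tek*. Clusters named from arterial, capillary and venous markers gave 2824 arterial, 5699 capillary and 679 venous ECs without an *Apln* UMI. The zones do not cover all ECs. A cluster of 2869 ECs, led by *Cyp2e1*, *F5* and *Aldh1a1*, scored highest for venous markers but was put in no zone. *Apln*, which encodes apelin, marks sprouting ECs, and 802 ECs with at least 1 *Apln* UMI formed the *Apln*-positive class, 102 of them in the WT and 700 in the *Angpt2*-KO mice. Mural cells numbered 1300, of which 596 were pericyte-like and 704 smooth muscle-like. Levels are given as CPM, the UMIs of a gene per 1e6 UMIs of the summed cells of 1 mouse. Because a level is a share of all UMIs of a class, fewer expressing cells and less RNA per cell cannot be told apart in it. *Angpt2* itself was at 10.6 and 9.97 CPM in the ECs of WT1 and WT2 and at 65.4 and 41.1 CPM in those of KO1 and KO2, but 3′ counts do not read exon 4, so this does not check the genotype labels.

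The mixture of ECs differed between the genotypes. *Apln*-positive cells made up 1.18% and 1.36% of the ECs of WT1 and WT2, and 18.8% and 7.43% of those of KO1 and KO2. One EC cluster, whose leading genes were *Apln*, *Esm1* and *Fscn1*, held 40 cells in each WT mouse, 882 cells in KO1 and 979 cells in KO2. It is called the *Apln*-led cluster here. Among the zones its score was highest for capillary markers, 8 of which were detected, but it was put in no zone because 3 of its 10 leading genes (*Apln*, *Esm1* and *Lamb1*) were listed markers of sprouting and 0 were capillary markers. The pathway genes took no part in the clustering. The *Apln*-led cluster held 42.2% and 23.6% of the ECs of KO1 and KO2, so over all ECs the genotype and the mixture of cells differed together. The same held within the *Apln*-positive class. The *Apln*-led cluster held 26.3% and 14.1% of the *Apln*-positive ECs of WT1 and WT2, and 77.8% and 63.6% of those of KO1 and KO2. Of the WT ones, 50% and 40.6% lay in the *Cyp2e1*-led cluster without a zone.

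*Bmp6* lies at chr13:38345107-38500302 on the plus strand of GRCm38 (GENCODE M21), *Nog* at chr11:89300638-89302332 on the minus strand, and *Eng* at chr2:32646595-32682669 on the plus strand. *Acvrl1* lies at chr15:101128522-101145336, *Bmpr2* at chr1:59763400-59879014 and *Smad6* at chr9:63953076-64022059. *Id1* spans chr2:152736251-152737410 and *Id3* chr4:136143497-136145755. *Bmp6*, *Acvrl1* and *Eng* overlap other genes on the opposite strand, which the strand-specific counting keeps apart. Upstream windows of 250 bases that lie outside the annotated gene were at hand for 3 of the 10 genes. Those of *Eng*, the receptor that differed between genotypes, and of *Smad6*, which among the zones was highest in arterial ECs, are printed here from RefSeq (GRCm38.p6), 5′ to 3′ on the strand of the gene. Capitals mark GGAGCC on either strand, a GC-rich SMAD-binding element.
Eng, chr2:32646345-32646594, plus strand: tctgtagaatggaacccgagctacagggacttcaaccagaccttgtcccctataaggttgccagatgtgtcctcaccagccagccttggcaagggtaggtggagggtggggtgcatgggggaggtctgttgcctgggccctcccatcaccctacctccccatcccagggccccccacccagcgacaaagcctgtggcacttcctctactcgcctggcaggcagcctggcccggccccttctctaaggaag
Smad6, chr9:64022060-64022309, minus strand: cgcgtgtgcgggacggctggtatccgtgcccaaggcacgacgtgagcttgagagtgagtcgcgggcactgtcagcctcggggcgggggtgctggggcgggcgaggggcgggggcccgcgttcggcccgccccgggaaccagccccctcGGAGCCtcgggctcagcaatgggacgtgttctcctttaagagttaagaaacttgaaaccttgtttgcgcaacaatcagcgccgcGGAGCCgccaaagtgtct
The *Smad6* window held GGAGCC at 102 and 18 bases before the start, which 26% of 32851 windows of the same length held at least once. The *Eng* window held no match to it. Neither window held GGCGCC, the other GC-rich element searched on both strands, which 9.59% of windows held. The GC content was 66.8% upstream of *Smad6* and 62.4% upstream of *Eng*.

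*Bmp6*, the ligand, was barely detected in WT ECs and rose in the *Angpt2*-KO. Over all ECs it was at 1.78 and 1.03 CPM in WT1 and WT2 and at 22.1 and 14.1 CPM in KO1 and KO2, from 82 UMIs in WT and 812 in *Angpt2*-KO cells. Both *Angpt2*-KO mice lay far above both WT mice (log2 fold change 3.69, SE 0.306, adjusted p = 0.00137 by edgeR). Over all ECs, 3 of the 9 tested pathway members passed the test, all upward, where 6.07% of the 13534 genes tested did. *Bmp6* passed in each of 10 alternative analyses.

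The rise of *Bmp6* was called in capillary ECs, which had 1.22 and 0.171 CPM in WT and 7.22 and 6.32 CPM in the *Angpt2*-KO (log2 fold change 3.22, SE 0.551, adjusted p = 0.00536). This call rested on few counts, with 8 UMIs in WT and 49 in the *Angpt2*-KO. Arterial ECs had 5.23 and 3.16 CPM in WT and 9.03 and 8.12 CPM in the *Angpt2*-KO, a log2 fold change of 0.98 that did not pass (adjusted p = 0.285). In venous ECs 5 WT and 18 *Angpt2*-KO UMIs gave a log2 fold change of 3.94 with an adjusted p of 0.121, which passed without TMM scaling (0.0266), without a filter on low counts (0.000824) and without KO1 (0.00241). The venous class was small, with 35 cells in KO1. The *Cyp2e1*-led cluster without a zone had *Bmp6* at 0.1 and 0.38 CPM in WT and at 4.4 and 1.8 CPM in the *Angpt2*-KO. The *Apln*-positive class held unlike mixtures of cells in the genotypes, as given above. In *Apln*-positive ECs *Bmp6* was at 1.72 and 0 CPM in WT and at 31.6 and 27.3 CPM in the *Angpt2*-KO. These came from 1 UMI in WT and 313 in the *Angpt2*-KO, a ratio of 53.1 with a 95% counting interval of 9.46 to 2100. The ECs with no *Apln* UMI rose as well, from 1.78 and 1.07 CPM to 17.6 and 12.1 CPM (log2 fold change 3.37, SE 0.28, adjusted p = 0.00138).

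*Nog*, which encodes the BMP antagonist noggin, also rose over all ECs. It was at 2.99 and 1.65 CPM in the ECs of WT1 and WT2 and at 37.3 and 19.5 CPM in those of KO1 and KO2, with 135 and 1274 UMIs. The *Angpt2*-KO mice again lay above both WT mice (log2 fold change 3.61, SE 0.36, adjusted p = 0.00181), and the call held in each of 10 alternatives. In capillary ECs *Nog* was at 3.15 and 4.11 CPM in WT and at 37.8 and 21.7 CPM in the *Angpt2*-KO, the smallest adjusted p of any pathway member in a zone (log2 fold change 2.96, SE 0.287, adjusted p = 4.51e-05). Arterial ECs had 5.92 and 4.02 CPM in WT and 17.2 and 8.12 CPM in the *Angpt2*-KO (log2 fold change 1.24, adjusted p = 0.0919), and *Nog* was called there without WT1 (adjusted p = 0.0292) or without KO2 (0.000113).

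*Nog* was nearly absent from venous ECs, with 0 and 1 UMI in WT1 and WT2 and 2 and 3 UMIs in KO1 and KO2, too few for the test. The *Nog* difference was 1.75 log2 units smaller in arterial than in capillary ECs (difference -1.75, 95% interval -2.47 to -1.02), which did not pass over all genes (adjusted p = 0.283). In *Apln*-positive ECs *Nog* had 2 UMIs in WT and 352 in the *Angpt2*-KO, a ratio of 29.9 with a counting interval of 8.2 to 247. That call was lost without WT2 (adjusted p = 0.071), when *Apln* positivity took 2 UMIs (0.101), and when *Apln* was read in cells thinned to 2000 UMIs (0.479). In *Apln*-negative ECs *Nog* rose from 2.98 and 1.71 CPM to 36.7 and 18.9 CPM (log2 fold change 3.56, SE 0.356, adjusted p = 0.00225).

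*Bmper* was at the floor of detection. The ECs of WT1, WT2 and KO1 held 1 UMI each and those of KO2 held 0, so it was not tested in any class. The mural cells held none in any mouse.

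Cells of the *Apln*-led cluster held most of the *Bmp6* and *Nog* transcripts of the *Angpt2*-KO. The cluster held 43.2% of the EC UMIs of the *Angpt2*-KO mice, but 79.7% of their *Bmp6* UMIs (647 of 812) and 73.7% of their *Nog* UMIs (939 of 1274). For *Eng* its share was 54.9%, and for the other tested members it was between 35.8% (*Smad6*) and 45.8% (*Id3*). Within the cluster *Bmp6* was at 34.6 and 31.7 CPM in KO1 and KO2 and *Nog* at 54.5 and 38.7 CPM. Its WT cells, 40 in each mouse, had *Bmp6* at 0 and 4.63 CPM and *Nog* at 20.8 and 2.31 CPM. These rested on 2 *Bmp6* and 11 *Nog* UMIs. *Eng* was at 717 and 937 CPM in the WT cells of the cluster and at 1245 and 1321 CPM in the *Angpt2*-KO ones. The cluster was chosen in these cells, so these shares describe it and are no test.

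Cells with no *Apln* UMI outside that cluster still differed. There *Bmp6* was at 1.81 and 1.02 CPM in WT and at 5.68 and 5.81 CPM in the *Angpt2*-KO, a log2 fold change of 2.03 in place of 3.37. *Nog* was at 2.67 and 1.70 CPM in WT and at 17.2 and 10.5 CPM in the *Angpt2*-KO, a log2 fold change of 2.64 in place of 3.56. Both stayed called, and each *Angpt2*-KO mouse lay above each WT mouse. *Eng* was at 555 and 541 CPM in WT and at 765 and 798 CPM in the *Angpt2*-KO, a log2 fold change of 0.50 that no longer passed (adjusted p = 0.147). This alternative was chosen after seeing the data, and it calls 141 genes where 551 were called with the cluster in place.

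**Figure D1:**
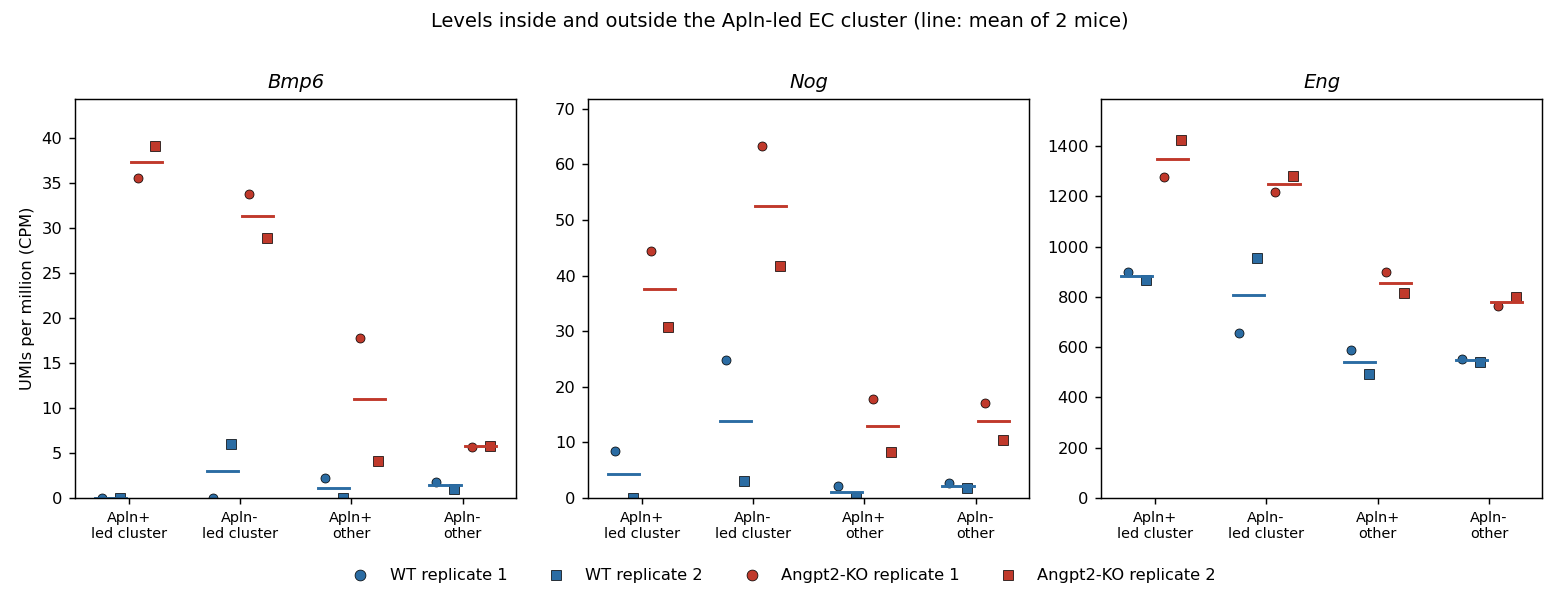
Levels of *Bmp6*, *Nog* and *Eng* in CPM (vertical axis, linear from 0) for ECs with (Apln+) or without (Apln-) an *Apln* UMI, inside the *Apln*-led cluster and in the other ECs. Points are single mice, circles replicate 1 and squares replicate 2, blue WT and red *Angpt2*-KO, and lines are means of 2 mice. In the cells that are neither in the cluster nor *Apln*-positive the *Angpt2*-KO mice sit at 5.68 and 5.81 CPM for *Bmp6*, above both WT mice.

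In *Apln*-negative ECs the share of cells with a UMI of *Bmp6*, *Nog* or *Eng* was higher in both *Angpt2*-KO mice than in both WT mice. After thinning each cell to 2000 UMIs, which removes differences in depth, 0.366% and 0.123% of *Apln*-negative ECs of WT1 and WT2 had a *Bmp6* UMI, against 2.62% and 2.18% in KO1 and KO2. Before thinning the shares were 0.784%, 0.431%, 9.48% and 4.61%. For *Nog* the thinned shares were 0.765% and 0.369% in WT and 6.81% and 3.69% in the *Angpt2*-KO. Exact 95% intervals of the *Angpt2*-KO shares of *Nog*, 5.63% to 8.16% and 3.07% to 4.39%, lay above those of WT, and cover counting error only. No thinned microglia-like cell had a *Nog* UMI, among 132 to 238 cells a mouse, which allows a share of up to 1.26% to 2.27%. *Eng* was found in 61.7% and 63.7% of thinned *Apln*-negative WT ECs and in 79.9% and 79.4% of the *Angpt2*-KO ones, against 13.4% to 19.7% of microglia-like cells. Thinning left out 98 to 585 shallower *Apln*-negative ECs a mouse. In arterial ECs the thinned shares overlapped, at 1.18% and 0.191% in WT and 0% and 1.01% in the *Angpt2*-KO for *Bmp6*, and at 1.06% and 0.382% against 1.62% and 1.01% for *Nog*. In mural cells those of *Bmp6* overlapped too, at 1.45% and 2.65% in WT and 3.24% and 2.38% in the *Angpt2*-KO. So did those of *Nog* in *Apln*-positive ECs, at 5.26% and 0% in WT and 9.02% and 4.84% in the *Angpt2*-KO. There *Bmp6* was at 2.63% and 0% against 6.63% and 3.11%, and *Eng* at 68.4% and 74.6% against 87% and 86.9%. The WT shares of this class came from 38 and 63 thinned cells.

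*Eng*, the endothelial co-receptor endoglin, rose over all ECs, while the receptor kinases *Acvrl1* and *Bmpr2* did not pass. *Eng* was at 558 and 545 CPM in WT1 and WT2 and at 1033 and 968 CPM in KO1 and KO2, so the groups were far apart next to the spread within them (log2 fold change 0.84, SE 0.144, adjusted p = 0.0127). It passed in each of 10 alternatives. In *Apln*-positive ECs it was at 653 and 524 CPM in WT and at 1191 and 1218 CPM in the *Angpt2*-KO (log2 fold change 1.03, SE 0.184, adjusted p = 0.00365). This call was lost with *Apln* read in thinned cells (log2 fold change 0.72, adjusted p = 0.115). In *Apln*-negative ECs it was at 556 and 545 CPM in WT and at 956 and 929.7 CPM in the *Angpt2*-KO (log2 fold change 0.75, adjusted p = 0.0171), a call lost without KO1 (adjusted p = 0.068).

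Within each zone *Eng* was higher in both *Angpt2*-KO mice than in both WT mice, but passed in none by edgeR. Capillary ECs had 557 and 621 CPM in WT and 832 and 830.0 CPM in the *Angpt2*-KO (log2 fold change 0.50, adjusted p = 0.167). There DESeq2 called it (adjusted p = 0.0183), as did edgeR without KO1 (0.0469). Arterial ECs had 687 and 720.0 CPM in WT and 858 and 956 CPM in the *Angpt2*-KO (log2 fold change 0.34, adjusted p = 0.359). Venous ECs had 411 and 415 CPM in WT and 511 and 588 CPM in the *Angpt2*-KO (log2 fold change 0.34, adjusted p = 0.601). Arterial ECs thus called 0 of 9 members where 0.889% of all genes were called, capillary ECs 2 of 9 (*Bmp6* and *Nog*) where 1.11% were, and venous ECs 0 of 8 where 0.0389% were. At an unadjusted p under 0.05 edgeR had 5 of 9 members in arterial ECs (*Bmp6*, *Nog*, *Eng*, *Bmpr2* and *Id3*), where 1083 of all 11247 genes had one, and 3 of 8 in venous ECs (*Bmp6*, *Smad7* and *Id3*), where 899 of 10296 had one. DESeq2 called *Id3* in venous ECs (adjusted p = 0.0397). In arterial ECs DESeq2 gave an adjusted p to 6 members and called none of these. The *Eng* difference did not pass as a difference between arterial and capillary ECs (-0.17, 95% interval -0.43 to 0.10) or between venous and capillary ECs (-0.17, -0.44 to 0.10).

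*Acvrl1*, which encodes ALK1, was at 375 and 417 CPM in WT ECs and at 389 and 409 CPM in *Angpt2*-KO ECs. The genotypes overlapped, with a log2 fold change of -0.01 and a 95% interval of -0.26 to 0.25 (adjusted p = 0.988). *Bmpr2*, the type II receptor, was at 703 and 600.4 CPM in WT and at 787 and 835 CPM in the *Angpt2*-KO. Both *Angpt2*-KO mice were above both WT mice here, and the log2 fold change of 0.29 (95% interval -0.01 to 0.60) did not pass (adjusted p = 0.358). *Bmpr2* showed the same order in arterial, capillary, venous and *Apln*-positive ECs and passed in none of these classes. Inside the clusters of the capillary class the genotypes overlapped. It was at 951 and 1049 CPM in WT and at 976 and 1055 CPM in the *Angpt2*-KO in the cluster led by *Gm26917*. In that led by *Hist1h4d* it was at 492 and 450 CPM and at 457 and 508 CPM. Without WT1 it was called in arterial (adjusted p = 0.0276), venous (0.0178) and *Apln*-negative ECs (0.0244).

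The inhibitory SMADs *Smad6* and *Smad7*, which block receptor-activated SMADs, passed the test between genotypes in no class. Over all ECs *Smad6* was at 41.3 and 36.1 CPM in WT ECs and at 33.7 and 38.2 CPM in *Angpt2*-KO ECs (log2 fold change -0.12, 95% interval -0.37 to 0.13, adjusted p = 0.674). *Smad7* was at 238 and 184 CPM in WT and at 201 and 187 CPM in the *Angpt2*-KO (log2 fold change -0.14, 95% interval -0.43 to 0.15, adjusted p = 0.677). In both, the WT and *Angpt2*-KO mice overlapped over all ECs. They did not for *Smad6* in arterial ECs, higher in both *Angpt2*-KO mice (log2 fold change 0.23, adjusted p = 0.596), or for *Smad7* in capillary ECs, at 211 and 189 CPM in WT and 179 and 159 CPM in the *Angpt2*-KO (log2 fold change -0.25, adjusted p = 0.641).

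Over all ECs *Id1* and *Id3*, the transcriptional regulators that BMP receptors induce, were lower in both *Angpt2*-KO mice than in both WT mice. Neither passed. *Id1* was at 822 and 843 CPM in WT ECs and at 744 and 589.9 CPM in *Angpt2*-KO ECs (log2 fold change -0.34, 95% interval -0.65 to -0.02, adjusted p = 0.303). *Id3* was at 898 and 1034 CPM in WT and at 825 and 743 CPM in the *Angpt2*-KO (log2 fold change -0.32, 95% interval -0.62 to -0.02, adjusted p = 0.303). The sign was negative in every class tested, with log2 fold changes of -0.24 to -0.34 for *Id1* and -0.26 to -0.59 for *Id3*. The EC classes share cells, as all ECs contain the rest. For *Id1* the genotypes overlapped in venous, *Apln*-positive and mural cells. In the capillary cluster led by *Gm26917*, *Id3* was at 399 and 476 CPM in WT and at 403 and 398.5 CPM in the *Angpt2*-KO. In that led by *Hist1h4d* it was at 1127 and 1176 CPM and at 1207 and 981 CPM. Both overlapped. The *Id3* value furthest from 0 was in venous ECs, at 916 and 1090.0 CPM in WT and 795 and 616 CPM in the *Angpt2*-KO (adjusted p = 0.37). The venous cells of KO2 were shallower and higher in mural markers, as given above. Without WT1 *Id3* was called in venous (adjusted p = 0.000397) and arterial ECs (0.0258).

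**Figure D2:**
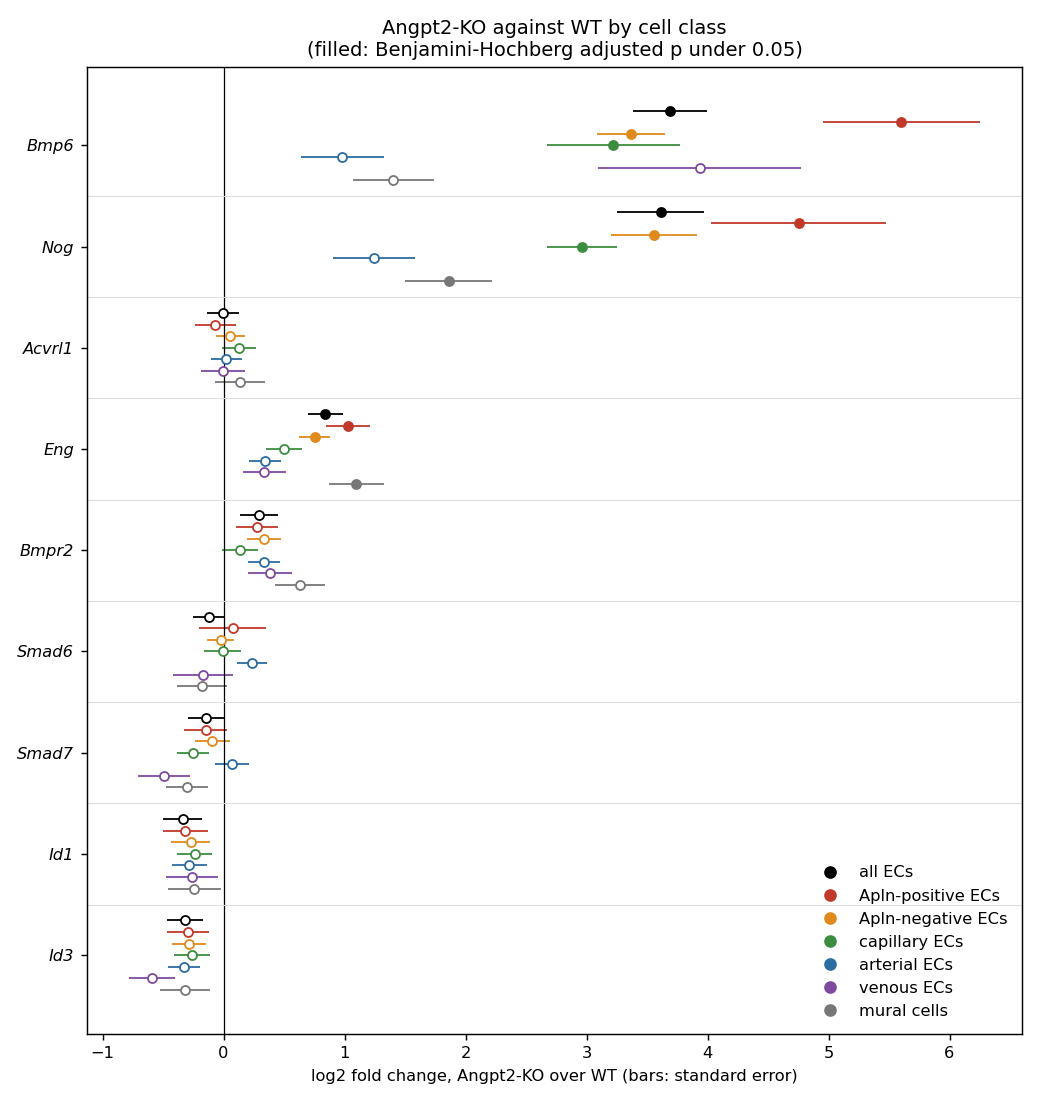
Log2 fold changes of *Angpt2*-KO over WT (horizontal axis, edgeR, bars are standard errors) for 9 of the 10 genes in 7 classes of cells, with filled points for adjusted p under 0.05. *Bmp6* and *Nog* lie far to the right in ECs, at 3.69 and 3.61 over all ECs, *Eng* lies between 0.34 and 1.10, and the points of *Acvrl1*, *Smad6*, *Smad7*, *Id1* and *Id3* are open in every class.

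Across zones the members fell into different orders, described here over all 4 mice and without a test, since the zones were drawn from clusters of these cells. Among the zones, *Apln*-positive ECs and summed mural cells, *Smad6* was highest in arterial ECs, at 74.3, 71.5, 84.7 and 89.6 CPM in WT1, WT2, KO1 and KO2. No mouse was above 45.9 CPM in the other classes of these. Smooth muscle-like cells alone were at 36.2, 59.8, 94.5 and 51.7 CPM. Fenestrated endothelial-like cells, kept apart from all of these, were at 124, 81.7, 101 and 108 CPM, above arterial ECs in each mouse. *Acvrl1* was also highest in arterial ECs (453 to 518 CPM), above each mouse's venous, capillary and *Apln*-positive ECs. Its capillary range (322 to 402 CPM) overlapped the venous (365 to 439 CPM) and the *Apln*-positive one (321 to 358.5 CPM), which lay apart. It was lowest of these classes in mural cells (175 to 279 CPM). *Smad7* was at 243 to 310 CPM in arterial and 159 to 211 CPM in capillary ECs, without overlap.

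The target genes had their highest zone mean in arterial ECs too. *Id1* was at 706 to 1019 CPM in arterial, 506 to 828 in venous, 502 to 779.5 in *Apln*-positive and 530 to 677 in capillary ECs, with arterial above venous in 4 of 4 mice although the ranges overlap. *Id3* was at 882 to 1206 CPM in arterial and 590 to 800.2 CPM in capillary ECs, which did not overlap. The capillary class joins unlike clusters, given here with their *Apln*-positive cells. In the one led by *Gm26917*, *Id3* was at 398.5 to 476 CPM and *Id1* at 441 to 505 CPM. In the one led by *Hist1h4d*, *Id3* was at 981 to 1207 CPM and *Id1* at 656 to 929 CPM, ranges that overlap those of arterial ECs. *Bmpr2* stood apart from this order. In WT its mean was highest in capillary ECs (775 CPM, against 634 in arterial and 625 in venous ECs), and in the *Angpt2*-KO the venous, capillary and arterial means were close, at 859, 850.1 and 818 CPM. The WT capillary mean joins unlike values. In WT1 and WT2 *Bmpr2* was at 951 and 1049 CPM in the *Gm26917*-led cluster, but at 492 and 450 CPM in the *Hist1h4d*-led one. The latter lay below arterial (661 and 606.5 CPM) and venous ECs (713 and 536 CPM). The order of *Eng* was not the same in the genotypes either. In WT, arterial ECs were highest, at 687 and 720.0 CPM, and in the *Angpt2*-KO *Apln*-positive ECs were, at 1191 and 1218 CPM. The zone with the highest mean over all 4 mice was the same for each of 9 members when ECs were clustered at resolution 0.6.

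**Figure D3:**
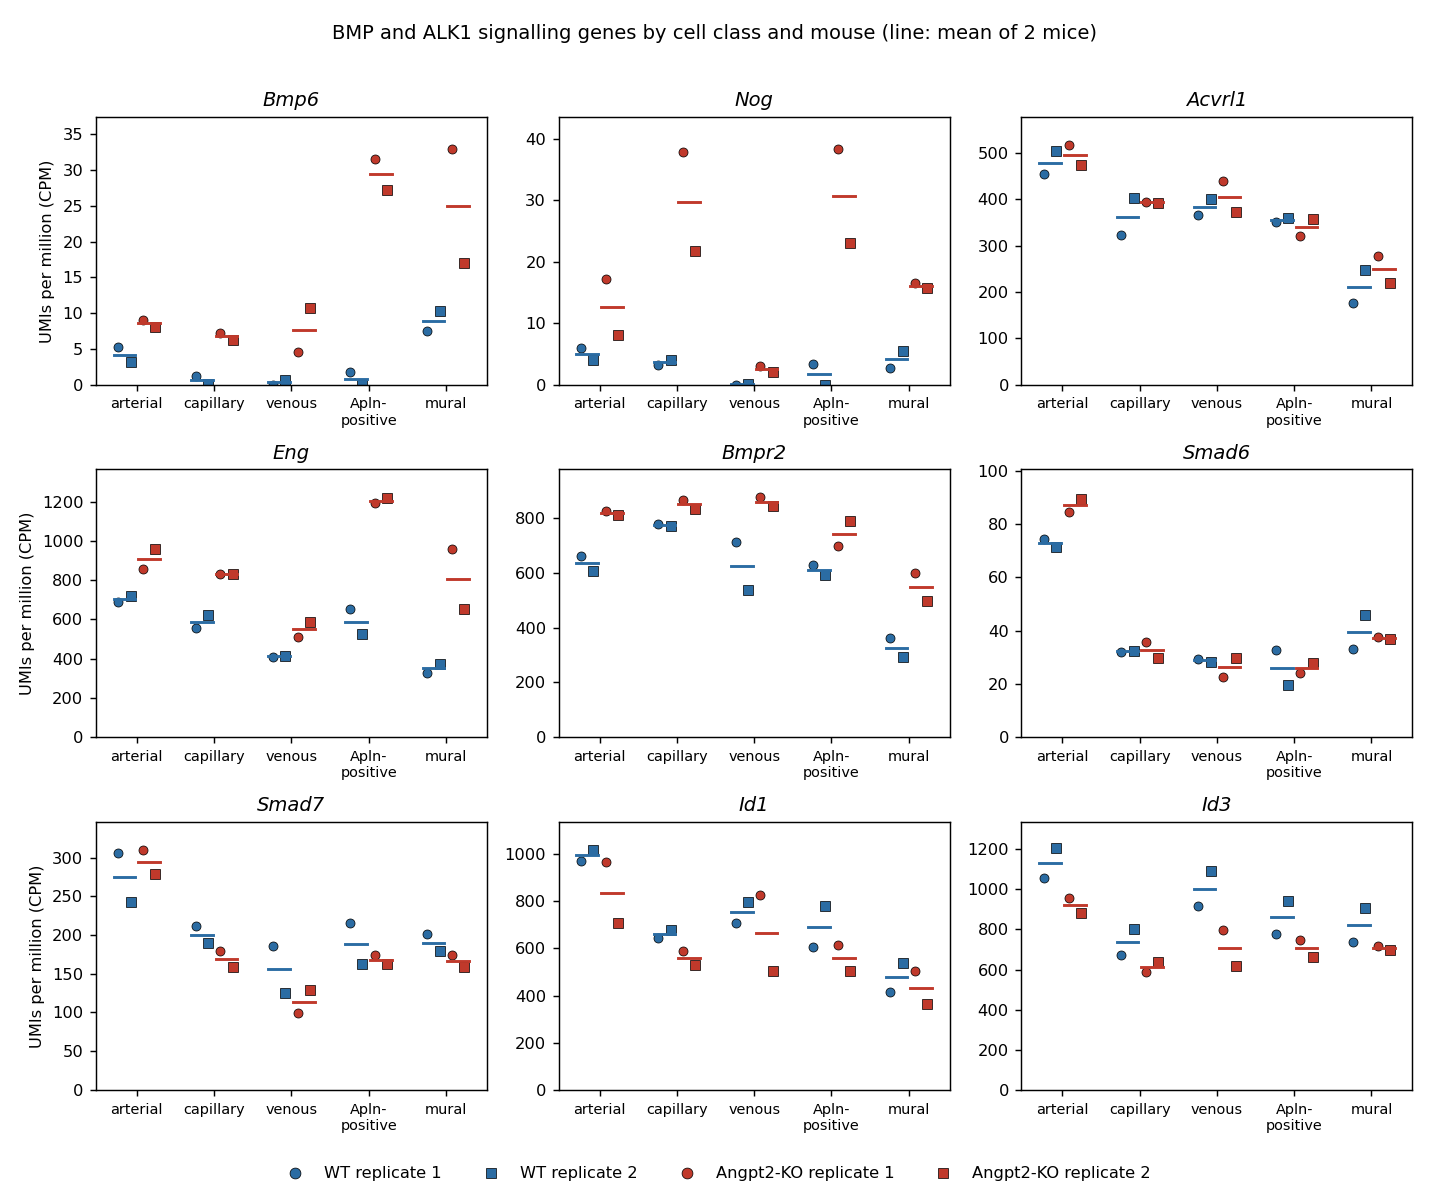
Level of each detected gene in CPM (vertical axes, linear from 0) in arterial, capillary, venous and *Apln*-positive ECs and in mural cells. Points are single mice, circles replicate 1 and squares replicate 2, blue WT and red *Angpt2*-KO, and lines are means of 2 mice. *Smad6* stands at 71.5 to 89.6 CPM in arterial ECs, and the red *Bmp6* points stand highest in *Apln*-positive ECs and mural cells.

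The 3 genes whose profile over the 4 mice and 5 classes was most like that of *Bmp6* were *Gda*, *Tmod2* and *Ifi203* (Pearson r of 0.90, 0.89 and 0.88 of log2(CPM + 1) over 20 profiles, among 6704 genes). For *Nog* they were *Arhgef12*, *Plekhh2* and *Dusp3* (0.90, 0.90 and 0.90), and for *Eng* *Lrrc8a*, *Lpar6* and *Pgm2l1* (0.97, 0.95 and 0.94). *Acvrl1* ran with *Irgm2*, *Srarp* and the endothelial cadherin gene *Cdh5* (0.95, 0.94 and 0.94), *Smad6* with *Cdk19*, *Glul* and *Msx1*, and *Id1* with *Sox18*, a transcription factor of ECs (0.93). The profiles share libraries and depth, so these are descriptions.

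In the *Apln*-positive ECs of the *Angpt2*-KO mice *Bmp6* and *Eng* were higher and 4 other members lower than in the *Apln*-negative ECs of the same mice. This comparison had the mouse as a term, and 6 of 9 members passed, 2 upward and 4 downward, where 21.5% of the 12877 genes tested passed. *Bmp6* was higher by 0.99 on the log2 scale (SE 0.15, adjusted p = 1.37e-06), at 31.6 against 17.6 CPM in KO1 and 27.3 against 12.1 CPM in KO2. *Eng* was higher by 0.36 (SE 0.0744, adjusted p = 0.000224). *Nog* was at 38.4 against 36.7 CPM in KO1 and at 23.1 against 18.9 CPM in KO2, a difference of 0.16 that did not pass (adjusted p = 0.467).

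*Smad6* was lower in the *Apln*-positive ECs of the *Angpt2*-KO, at 24.3 against 38.3 CPM in KO1 and at 28.0 against 39.8 CPM in KO2 (log2 fold change -0.59, adjusted p = 4.6e-05). *Id1* was at 615 against 806 CPM and at 502 against 603 CPM (log2 fold change -0.32, adjusted p = 0.0019). *Acvrl1* was lower by a log2 fold change of -0.30 (adjusted p = 0.00324) and *Smad7* by one of -0.25 (adjusted p = 0.0168). *Id3* (-0.19, adjusted p = 0.0608) and *Bmpr2* (-0.17, adjusted p = 0.11) did not pass. With capillary ECs as the *Apln*-negative cells the calls of *Acvrl1*, *Smad6*, *Smad7* and *Id1* were lost (adjusted p of 0.126, 0.0982, 0.694 and 0.723). Without KO1 the same 4 calls were lost, with adjusted p of 0.235, 0.0607, 0.265 and 0.0697. With the *Apln*-led cluster set against all other ECs in their place, *Nog* was called (log2 fold change 1.78, adjusted p = 2.28e-08) and *Acvrl1*, *Smad7* and *Id1* were not (0.252, 0.706 and 0.669).

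In the WT mice *Smad6* (log2 fold change -0.71, adjusted p = 0.0386) and *Id1* (-0.32, adjusted p = 0.0225) were lower in *Apln*-positive than in *Apln*-negative ECs, which made 2 of 9 members called where 2.75% of genes were. These rested on 102 WT cells, and *Smad6* on 42 UMIs in them. With the *Apln*-led cluster set against all other ECs, edgeR called *Nog* (2.41, adjusted p = 0.0296) and *Eng* (0.555, 0.00323) upward in WT. *Smad6* and *Id1* were not called there (0.752 and 0.375). *Smad6* lost its call without WT2 (adjusted p = 0.775) and *Id1* without WT1 (adjusted p = 0.739). The *Apln* difference itself differed between genotypes for 0 of 9 members by edgeR, where 4.59% of genes passed. Of these, *Eng* alone had an unadjusted p under 0.05, with a difference 0.33 higher in the *Angpt2*-KO (adjusted p = 0.0822 by edgeR and 0.273 by DESeq2). *Apln*-positive cells were also deeper, with medians of 11303, 13091.5, 12685 and 5884 UMIs in WT1, WT2, KO1 and KO2, against 5404, 4478, 6952 and 3793 in *Apln*-negative cells. With *Apln* read in cells thinned to 2000 UMIs, the same 6 members and *Bmpr2* (log2 fold change -0.35, adjusted p = 0.0154) were called in the *Angpt2*-KO. *Id3* was then called in WT (-0.95, adjusted p = 6.21e-08) and in the difference between genotypes (0.68, adjusted p = 0.0157). *Eng* was called in that difference without WT1 (0.45, adjusted p = 0.0479).

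**Figure D4:**
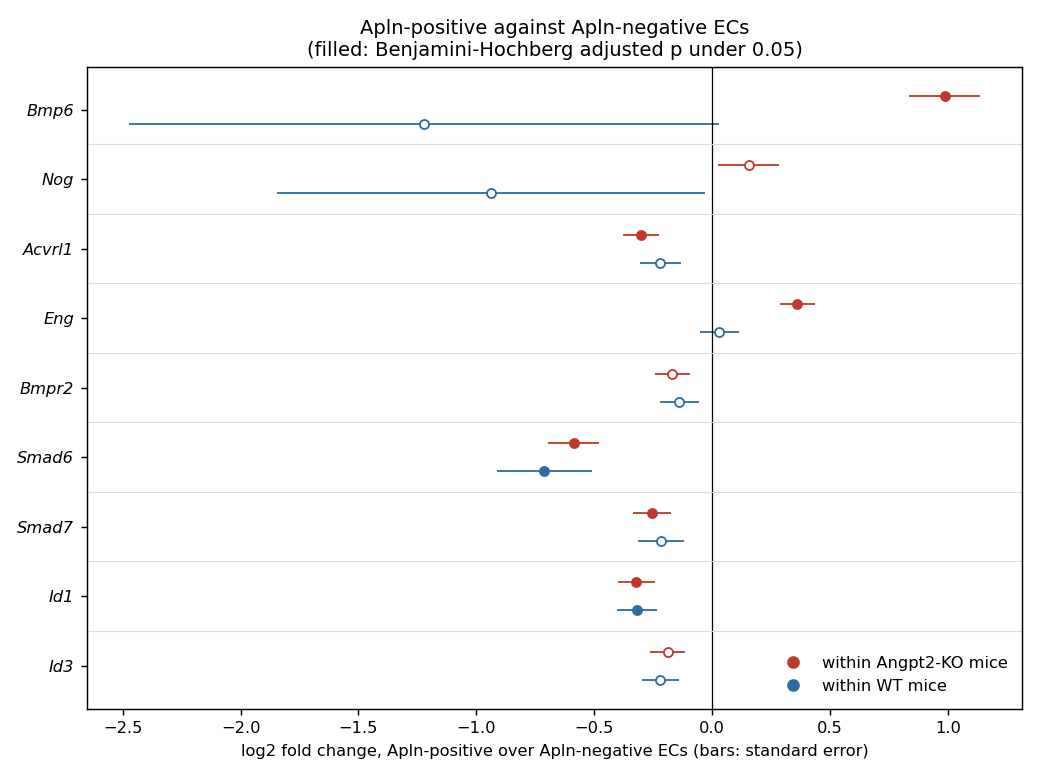
Log2 fold changes of *Apln*-positive over *Apln*-negative ECs (horizontal axis, edgeR with the mouse as a term, bars are standard errors), red within *Angpt2*-KO and blue within WT mice, with filled points for adjusted p under 0.05. *Bmp6* at 0.99 and *Eng* at 0.36 are filled to the right of 0 in the *Angpt2*-KO, and *Smad6* and *Id1* are filled to the left in both genotypes.

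Against this background 3 of 9 members passed between genotypes in *Apln*-positive ECs (*Bmp6*, *Nog* and *Eng*, where 9.67% of genes passed) and the same 3 of 9 in *Apln*-negative ECs (where 4.14% passed). No member differed in its genotype effect between arterial and capillary ECs by edgeR (0 of 9, where 0.017% of genes passed) or between venous and capillary ECs (0 of 9, where 0.0425% passed). At an unadjusted p under 0.05 these held *Bmp6*, *Nog* and *Smad7* for arterial and *Id3* for venous ECs, where 513 and 898 of all 11770 genes had one. Only edgeR was run on these differences.

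Mural cells had *Nog* and *Eng* called upward in the *Angpt2*-KO, 2 of 9 members where 1.96% of genes passed. The mural class held unlike mixtures of cells in the genotypes. Pericyte-like cells were 74 of 342 mural cells in WT1 and 147 of 337 in WT2. They were 170 of 222 in KO1 and 205 of 399 in KO2, so genotype and mixture differed together here too. *Nog* was at 2.72 and 5.52 CPM in WT and at 16.5 and 15.8 CPM in the *Angpt2*-KO (log2 fold change 1.86, SE 0.361, adjusted p = 0.0315). *Eng* was at 327 and 374 CPM in WT and at 959.8 and 656 CPM in the *Angpt2*-KO (log2 fold change 1.10, SE 0.225, adjusted p = 0.0361). *Bmp6* was at 7.49 and 10.4 CPM in WT and at 33.0 and 17.0 CPM in the *Angpt2*-KO (log2 fold change 1.40, adjusted p = 0.0656), called without TMM (0.0388), without a filter on low counts (2.92e-05) and without KO2 (3.74e-07). Without WT1 *Nog* and *Eng* both had an adjusted p of 0.384, and without WT2 they had 0.376 and 0.422. Without KO1 *Eng* had an adjusted p of 0.158.

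Endothelial markers moved with these values, and so did the share of pericyte-like cells. Smooth muscle-like cells had summed endothelial markers at 4389 and 4828 CPM in WT and at 6586 and 4729 CPM in the *Angpt2*-KO. In each mouse this was below the pericyte-like cells. All 7 endothelial markers were found in the mural cells of every mouse, none of them at 0, and their summed level was 4926 and 5762 CPM in WT and 7350.0 and 6249 CPM in the *Angpt2*-KO, against 11600.0 to 12650.0 CPM in ECs. *Apln* was at 2.38 and 0.345 CPM in the mural cells of WT1 and WT2 and at 402 and 153 CPM in those of KO1 and KO2. In the 747 mural cells with fewer than 5 UMIs of endothelial markers *Nog* had 0 UMIs in all 4 mice. *Bmp6* was there at 8.21 and 9.40 CPM in WT and 4.21 and 17.9 CPM in the *Angpt2*-KO, which overlapped. *Eng* was at 53.8 and 71.4 CPM in WT and at 167 and 97.3 CPM in the *Angpt2*-KO, a log2 fold change of 0.94 (adjusted p = 0.401), and 2 genes in all passed in these cells.

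In pericyte-like cells alone *Nog*, *Bmp6* and *Eng* were all called, where 637 genes in all passed. The 221 WT cells held 1 *Nog* and 8 *Bmp6* UMIs, against 104 and 153 in the 375 *Angpt2*-KO cells. No mouse was left out in turn for these calls. There *Nog* was at 1.69 and 0 CPM in WT and at 19.4 and 19.7 CPM in the *Angpt2*-KO, *Bmp6* at 3.38 and 6.05 CPM and at 33.8 and 17.3 CPM, and *Eng* at 437 and 393 CPM and at 1052 and 876 CPM. The adjusted p was 0.000296 for *Nog*, 0.00334 for *Bmp6* and 0.000174 for *Eng*. Their summed endothelial markers, at 7060.0 and 7559 CPM in WT and 7549 and 7645 CPM in the *Angpt2*-KO, were nearly level between genotypes, while *Apln* was at 1.69 and 1.01 CPM and at 505.5 and 291 CPM. In smooth muscle-like cells *Nog* was at 2.98 and 8.39 CPM in WT and at 5.19 and 11.4 CPM in the *Angpt2*-KO, and *Eng* at 299.7 and 364 CPM and at 605 and 416 CPM, with adjusted p of 0.936 and 0.881. The part of endothelial RNA or of doublets in the mural values was not tested beyond these measurements.

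**Figure D5:**
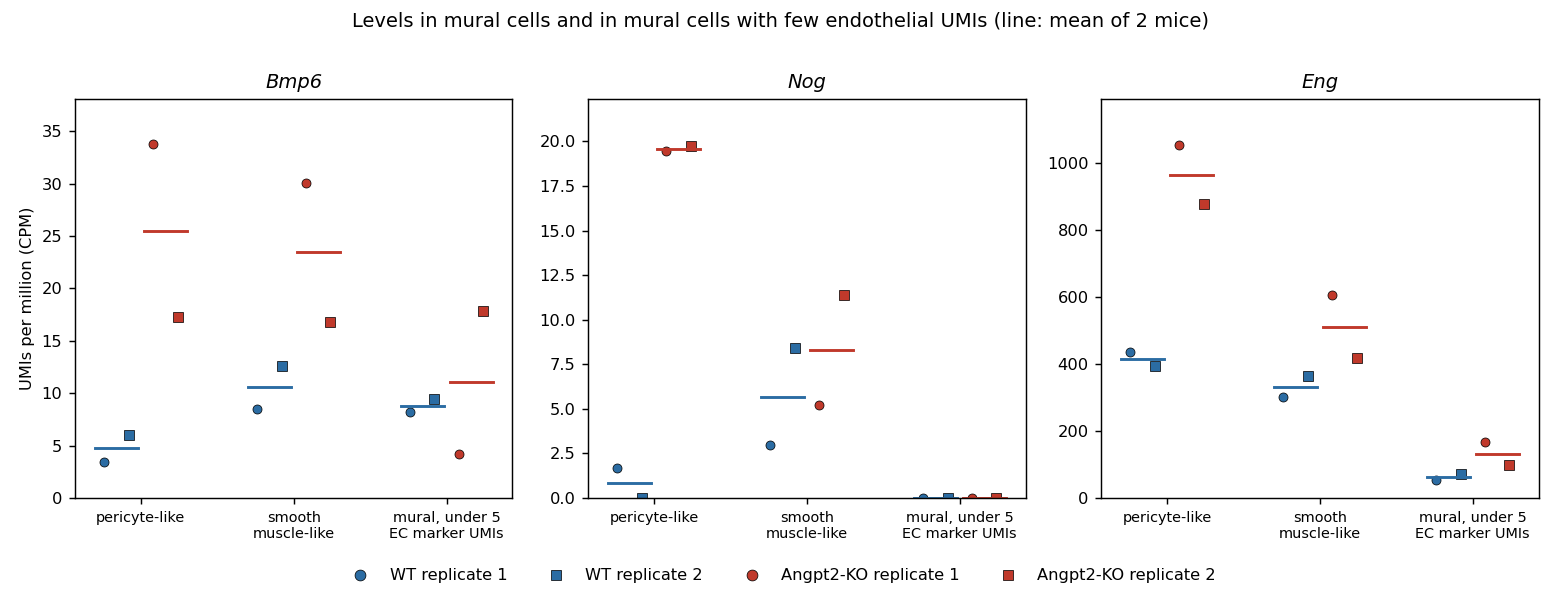
Levels of *Bmp6*, *Nog* and *Eng* in CPM (vertical axes, linear from 0) in pericyte-like cells, smooth muscle-like cells and mural cells with under 5 UMIs of endothelial markers. Points are single mice, circles replicate 1 and squares replicate 2, blue WT and red *Angpt2*-KO, and lines are means of 2 mice. *Nog* stands at 19.4 and 19.7 CPM in the pericyte-like cells of the *Angpt2*-KO and at 0 in every mouse in the last class.

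Of 56 other genes of BMP and transforming growth factor β (TGF-β) signalling, 44 were tested over all ECs, and 3 rose and 3 fell in the *Angpt2*-KO, where 6.07% of all genes were called (median log2 fold change 0.03, against -0.02 over all genes). Of those that rose, the ligand *Bmp7* went from 5 UMIs in WT to 44 in the *Angpt2*-KO (log2 fold change 3.46, adjusted p = 0.0332), and *Bmp1*, a procollagen protease, from 4.58 and 4.81 CPM to 10.2 and 8.08 CPM. The ligand *Bmp4* fell from 11.3 and 6.72 CPM to 3.04 and 4.27 CPM (log2 fold change -1.32, adjusted p = 0.0352). The antagonist *Grem1* fell from 1.55 and 2.95 CPM to 0.573 and 0.0454 CPM (log2 fold change -2.86, adjusted p = 0.0495). *Id2*, a target gene related to *Id1* and *Id3*, fell from 99.3 and 99.4 CPM to 61.0 and 70.0 CPM (log2 fold change -0.62, adjusted p = 0.0147). Without WT1 or without WT2 the calls of *Grem1* (adjusted p of 0.0971 and 0.245), *Bmp7* (0.08 and 0.217) and *Bmp1* (0.0837 and 0.0622) were lost, without WT1 that of *Bmp4* (log2 fold change -0.87, 0.143), and without KO1 those of *Bmp7* (0.0636) and *Id2* (0.0958). Without TMM *Grem1* (0.0885), *Bmp7* (0.0537) and *Bmp4* (0.0618) were not called. The circulating ALK1 ligands were not made by these cells at a level that was detectable, with 0 UMIs of *Gdf2* (BMP9) and 2 of *Bmp10* over all ECs.

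By zone the list gave 0 calls of 36 genes tested in arterial ECs (0.889% of all genes), 1 of 32 in capillary ECs (1.11%) and 0 of 32 in venous ECs (0.0389%). The capillary call was *Nbl1*, a BMP antagonist, at 2.62 and 3.25 CPM in WT and 7.65 and 9.88 CPM in the *Angpt2*-KO (log2 fold change 1.62, adjusted p = 0.0206), a call lost with DESeq2 (0.232), without WT1 (0.0724) and without KO2 (0.129). In *Apln*-positive ECs 8 of 32 passed, where 9.67% of all genes did. Among them *Bmp1* (log2 fold change 1.75), the Notch target *Hey1* (1.63), the ligand *Tgfb2* (1.05), the SMAD corepressors *Skil* (0.81) and *Ski* (0.54) and the transducer *Smad1* (0.69) rose, and *Id2* fell (-0.97). Without WT2 none of these 7 passed (adjusted p from 0.0556 for *Tgfb2* to 0.368 for *Hey1*), and *Ski* was called in 2 of 11 alternatives and *Bmp1* in 4 of 10. In *Apln*-negative ECs 4 of 42 passed (4.14% of all genes), and among them *Ltbp3* (-1.16), the pseudoreceptor *Bambi* (-0.91) and *Id2* (-0.52) fell. *Ltbp3* was called in 4 of 12 alternatives, *Id2* was lost without KO1 (adjusted p = 0.187), and none of the 3 passed without the *Apln*-led cluster (0.253, 0.0575 and 0.0937). In mural cells, whose mixture differed between genotypes, 3 of 44 passed (1.96% of all genes). *Smad1* (1.23) and *Bmp1* (1.11) went upward and *Tmem100*, a target of ALK1 signalling in ECs, downward (-1.54). None of these passed without WT1, without WT2 or in mural cells with few endothelial UMIs.

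Between *Apln*-positive and *Apln*-negative ECs of the *Angpt2*-KO, 13 of 44 listed genes were higher and 5 lower, where 21.5% of all genes were called (1574 higher and 1190 lower of 12877). The largest differences were *Bmp7* (log2 fold change 5.98, from 42 against 2 UMIs) upward and *Tmem100* (-2.36) downward. *Smad1*, which carries the signal of BMP receptors, was at 243 against 97.2 CPM in KO1 and at 218 against 98.0 CPM in KO2 (log2 fold change 1.25, adjusted p = 1.28e-16). In WT 5 of 44 passed (2.75% of all genes), with *Smad1* (0.70) among those higher and *Tgfb2* (-0.82), *Tmem100* (-1.45) and *Hey1* (-2.01) lower in the *Apln*-positive cells. With capillary ECs as the *Apln*-negative cells *Tmem100* was at 0.12 in the *Angpt2*-KO and 0.36 in WT, neither called, and with *Apln* read in thinned cells *Hey1* was not called in WT (adjusted p = 0.887).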

How the data were processed

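Single-cell libraries (10x Genomics 3′ v3.1) of 2 *Angpt2*-WT and 2 *Angpt2*-KO mice were used. Stainings and qPCR of the study were not analysed here. The authors aligned the reads to GRCm38 (mm10) with Cell Ranger (6.1.2 per the labels, 6.1.1 per the file headers), and deposited raw UMI counts for each gene in each barcode.

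Barcodes with 500 genes or fewer, or 10% or more mitochondrial UMIs, were removed. The other cells were clustered with Seurat 5.3.0 (2000 variable genes, 50 principal components, resolution 0.2 for all cells and 0.4 for ECs), with the 10 members and 56 listed pathway genes left out. A cluster took the name of the list of markers with the highest mean standardized score if at least 3 markers were found in 25% of its cells, and stayed unnamed where markers of another type led it. Such rebuilt names can differ from those of the study. No doublets were removed and no doublet caller was run. Between libraries, 66 cells shared a barcode, 50 of them ECs.

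UMIs were summed per mouse and class and compared with edgeR 4.0.16 (quasi-likelihood test, TMM, filterByExpr, Benjamini-Hochberg over all genes tested, threshold 0.05) in R 4.3.3, a script first tested on simulated data. Alternatives were DESeq2 1.42.0, no TMM, other filters, a replicate block, leaving out each mouse, resolution 0.6 and other definitions of *Apln*-positive and mural cells. Shares have exact 95% binomial intervals and a count of 0 allows 3 counts, for counting error only. A thinned cell kept 2000 UMIs. Named were all members, the pathway genes called in a comparison (at most 10 by size), and the 3 genes most like each member. The members, lists and tests were chosen with earlier results of these data known. The counts over the 56 listed genes include 1 gene whose values are not reported here.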

Additional observations from a re-analysis of the deposited data

Results flagged for a closer look

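For 5 of the 44 other BMP and TGF-β pathway genes tested, and for none of the 9 tested genes of the report, the difference between *Apln*-positive and *Apln*-negative ECs was not the same in *Angpt2*-KO and WT mice (edgeR contrast of both differences, where 4.59% of all genes passed). With *Apln* read in thinned cells *Id3* passed as well (0.68, adjusted p = 0.0157), and without WT1 *Eng* did (0.45, adjusted p = 0.0479). All 5 contrasts were positive. *Hey1*, a Notch target, had a log2 fold change of -0.82 in the *Angpt2*-KO and of -2.01 in WT, a difference of 1.19 (SE 0.303, adjusted p = 0.0108). *Bambi*, a pseudoreceptor that damps BMP signals, differed by 1.03 (SE 0.198, adjusted p = 0.000444), and was at 61.8 against 22.3 CPM in KO1, 41.8 against 24.4 CPM in KO2, 39.4 against 36.7 CPM in WT1 and 60.0 against 49.9 CPM in WT2. *Tgfb2*, a ligand, differed by 0.71 (SE 0.132, adjusted p = 0.000266), with 277 against 312 CPM in KO1, 272 against 283 CPM in KO2, 151 against 264 CPM in WT1 and 118 against 197 CPM in WT2. The SMAD corepressor *Skil* differed by 0.59 (SE 0.141, adjusted p = 0.00609) and *Smad1* by 0.55 (SE 0.134, adjusted p = 0.00695). The WT *Apln*-positive class held 38 and 64 cells, with 12 and 7 *Hey1* UMIs. Leaving out 1 mouse at a time kept the *Tgfb2* call and lost that of *Hey1*, *Bambi*, *Skil* and *Smad1* in at least 1 case, with adjusted p of up to 0.747, 0.308, 0.107 and 0.248. With DESeq2 *Tgfb2* passed (adjusted p = 0.00372), and *Hey1* (0.13), *Bambi* (0.0803), *Skil* (0.106) and *Smad1* (0.119) did not. The *Tgfb2* call held in 8 of 12 alternatives and was lost with genotype in place of mouse (adjusted p = 0.325), in thinned cells (0.0834), for the *Apln*-led cluster (0.357) and with capillary ECs as reference (0.056).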

How the results depend on the processing

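The calls of *Bmp6*, *Nog* and *Eng* over all ECs held under every alternative run, and so did those of *Bmp6* and *Nog* in capillary and *Apln*-negative ECs under every alternative that gave them an adjusted p. The number of genes called over all genes moved more. DESeq2 called 45 genes in arterial ECs, 75 in capillary, 49 in venous and 569 in *Apln*-positive ECs, 1102 between *Apln*-positive and *Apln*-negative ECs in the *Angpt2*-KO, 158 in WT and 228 for the difference of these. Without a filter on low counts 1754 genes were called over all ECs, 0 in arterial, 263 in capillary, 111 in venous, 1368 in *Apln*-negative ECs and 1039 in mural cells. Without TMM 37 were called in venous ECs and 341 in mural cells, and with at least 50 UMIs in 2 mice 40 in venous ECs. At resolution 0.6 the counts were 54 in arterial and 11 in venous ECs, 6 for the arterial and 16 for the venous difference from capillary ECs. With *Apln*-positive ECs kept in their zones they were 96 in venous ECs and 0 for the arterial difference. *Apln* positivity from 2 UMIs gave 396 calls in *Apln*-positive ECs and 211 for the difference of *Apln* effects, and *Apln* read in thinned cells 194 and 384. Without the *Apln*-led cluster *Apln*-negative ECs had 141 calls. Mural cells had 2 calls with few endothelial UMIs, 637 as pericyte-like and 1 as smooth muscle-like cells alone. With genotype in place of mouse the *Apln* comparison had 1155 calls in the *Angpt2*-KO, 30 in WT and 33 for the difference. The *Apln*-led cluster against other ECs gave 551 in WT and 18 for the difference, and capillary ECs as reference 1207 and 254. The cause of these changes was not tested.

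Leaving out 1 mouse at a time gave 545 to 1428 calls over all ECs, 131 to 330 in arterial, 123 to 490 in capillary, 51 to 695 in venous, 253 to 965 in *Apln*-positive and 365 to 1176 in *Apln*-negative ECs, and 0 to 1334 in mural cells. The lone mouse of a genotype is then assumed to vary like the others. The *Apln* comparison gave 916 to 3109 in the *Angpt2*-KO, 175 to 413 in WT and 255 to 681 for their difference, and the zone differences 1 to 5 (arterial) and 3 to 17 (venous). Without WT1 or without WT2 mural cells had no call, against 1334 without KO2.

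Same-numbered mice share a number and a sex, and their deviations did not pair (Pearson 0.10 and Spearman -0.13 over 13534 genes, which are not replicates). With the replicate block there were 196 calls in arterial, 267 in capillary and 1105 in *Apln*-negative ECs. *Nog* in arterial (log2 fold change 1.27, adjusted p = 0.00773) and *Eng* in capillary ECs (0.50, 0.0106) then passed, and *Eng* in mural cells did not (1.08, 0.0714).

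Signs turned as follows, none of these values passing except *Nog* in WT for the *Apln*-led cluster (adjusted p = 0.0296). *Acvrl1* over all ECs was at 0.003 with DESeq2 and 0.011 without TMM, and with 1 mouse left out ranged from -0.05 to 0.051, *Smad6* from -0.239 to 0.009 and *Smad7* from -0.338 to 0.092. In thinned cells *Id2* in *Apln*-positive ECs was at 0.097. In the *Apln* comparison within the *Angpt2*-KO, *Nog* was at -0.272 with 2 UMIs, -0.247 thinned and -0.024 against capillary ECs. The *Apln*-led cluster against other ECs gave 0.102 for *Bmpr2*, 0.053 for *Smad7*, 0.144 for *Id3*, 0.07 for *Hey1*, -0.878 for *Bmp4* and -0.401 for *Ltbp3*, and the capillary reference 0.122 for *Id3*, 0.116 for *Tmem100* and -0.198 for *Smad5*. Within WT, *Nog* was at 0.251 with 2 UMIs, 1.72 thinned and 2.406 for the *Apln*-led cluster, which gave 0.597 for *Bmp6* and 0.141 for *Hey1*. The capillary reference gave 0.022 for *Bmp6*, -0.10 for *Eng*, 0.136 for *Id3* and 0.363 for *Tmem100*, and with 1 mouse left out *Nog* ranged from -7.49 to 0.13 and *Eng* from -0.09 to 0.159. For the difference of *Apln* effects *Nog* was at -0.523 with 2 UMIs, -1.967 thinned and -0.628 for the cluster, *Id3* at -0.024 without TMM, -0.229 with 2 UMIs, -0.014 with the capillary reference and -0.024 to 0.098 with 1 mouse left out, *Skil* at -0.006 with 2 UMIs, *Hey1* at -0.229 thinned and -0.071 for the cluster, and *Smad1* at -0.093 for the cluster.

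In the *Apln* comparison of the *Angpt2*-KO, genotype in place of mouse lost the calls of *Eng* (adjusted p = 0.158), *Acvrl1* (0.18), *Smad7* (0.417) and *Id1* (0.324), and DESeq2 those of *Smad6* (0.085) and *Smad7* (0.217). In WT, DESeq2 and the fit without TMM lost both *Smad6* (0.582 and 0.0565) and *Id1* (0.304 and 0.0557), genotype in place of mouse did so too (0.349 and 0.662), and thinned cells lost *Smad6* (0.544). Of the alternatives for single genes that kept their sign, these included, 547 kept direction and call, 134 lost the call and 16 gained it, and with 1 mouse left out 314, 71 and 11. For 56 results of the 10 genes with no call in any setting, 55 of 547 alternatives had the other sign. Leaving out the *Apln*-led cluster or cells with shared barcodes was chosen after seeing the data, and the latter kept the calls of *Bmp6*, *Nog* and *Eng*. Depth limits *Bmper*, the venous class and the WT *Apln*-positive class, as few UMIs or cells stand behind them.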

Other observations

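Outside the 5 classes of the report, *Bmp6* was highest in fenestrated endothelial-like cells, which carry *Plvap* and *Igfbp3* and are found where the blood-brain barrier is open. They had 123 and 142 CPM in WT1 and WT2 and 155 and 157 CPM in KO1 and KO2, and the 812 cells of this class held 533 *Angpt2*-KO and 555 WT UMIs of *Bmp6* (ratio of the pooled levels 1.15, 95% counting interval 1.02 to 1.29, with no test over mice). The ratio over all other ECs was 13.4 (10.6 to 17.0). *Bmper* had 9 UMIs in these cells, 4 in WT and 5 in the *Angpt2*-KO, against 3 in the 14163 other ECs. *Eng* was at 1332 to 1734 CPM in them.

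Microglia-like cells held *Smad7* at 460.2 to 603 CPM, above every arterial EC value (243 to 310 CPM). *Id1* was at 117 and 141 CPM in the microglia-like cells of WT1 and WT2 and at 73.3 and 74.1 CPM in those of KO1 and KO2, and *Id3* was at 134 and 177 CPM and at 84.7 and 95.9 CPM. Their summed endothelial markers were at 1804 and 2353 CPM in WT and 886.5 and 1429 CPM in the *Angpt2*-KO. The part of endothelial RNA in these *Id1* and *Id3* values was not tested.

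Each of *Bmp6* and *Nog* was seen in few thinned cells, so few could have UMIs of both. The low counts therefore do not show that the genes lie in separate cells. Among thinned *Apln*-negative ECs of KO1, 42 of 1600 had *Bmp6*, 109 had *Nog* and 4 had both. In KO2 these were 71, 120 and 7 of 3254. Of the *Bmp6*-positive cells of KO1 and KO2, 9.52% and 9.86% had a *Nog* UMI, against 6.74% and 3.55% of the *Bmp6*-negative ones. Among thinned *Apln*-positive ECs the cells with both were 3 of 377 in KO1 and 0 of 289 in KO2, where 12% and 0% of the *Bmp6*-positive and 8.81% and 5% of the *Bmp6*-negative cells had a *Nog* UMI.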
